A study of Mus musculus with 6 samples.

Results

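The genes of the p53 pathway and of cell cycle arrest described here, in the proximal incisor of adult mice, were 10 in number: *Trp53*, *Mdm2*, *Cdkn1a*, *Ccng1*, *Phlda3*, *Bax*, *Bbc3*, *Sesn2*, *Cdkn2a* and *Cdkn2b*. They were chosen by gene name, as a check for stress by recombination, with earlier results of these data known. All 10 were found among the 19270 genes of the expression table. RNA from 3 control and 3 mutant samples was sequenced 4 days after tamoxifen induction at the age of 1 month. The methods describe the samples as dissected proximal mesenchyme. The mutants carry *Gli1-CreER* with floxed *Arid1b* alleles, so that tamoxifen switches on Cre recombination in cells with *Gli1* expression and deletes *Arid1b*, a subunit gene of the BAF chromatin remodeling complex. The controls received tamoxifen too, and the labels call them wild type while the methods describe them as *Arid1b* fl/fl. Neither source gives the controls a Cre, so the *Gli1-CreER* allele, Cre activity and loss of *Arid1b* cannot be told apart in this comparison.

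The p53 protein, encoded by *Trp53*, is a transcription factor that is held at low levels by the ubiquitin ligase MDM2 and accumulates when DNA is broken or cells are stressed. It then switches on genes that halt the cell cycle, such as *Cdkn1a*, genes that favor cell death, such as *Bax* and *Bbc3*, and *Mdm2* itself, which closes a feedback loop. Since p53 is controlled mostly at the level of the protein, its targets and not its own transcript are the usual readout of its activity. The *Cdkn2a* and *Cdkn2b* genes lie side by side and encode inhibitors of the kinases that drive entry into S phase. The continuously growing incisor depends on slow-cycling mesenchymal stem cells and on rapidly dividing transit-amplifying cells. Both lie in its proximal region, so dissected proximal mesenchyme holds slow-cycling and dividing cells.

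The p53 protein binds elements made of 2 copies of a 10-base decamer. Each copy has 3 purines, a C, 2 bases that are A or T, a G and 3 pyrimidines. Here only 2 adjoining copies, which span 20 bases, were scored as a full element. This decamer reads the same pattern on both strands. In RefSeq promoter windows on GRCm38.p6, which span 250 bases before to 50 bases after a transcription start, the decamer was found in 5 of the 14 windows of the members (35.7%) and in 8.36% of all 32851 windows. By gene, 5 of the 10 members had a match, against 9.55% of the 27025 genes with a window. Of these, 12719 are in the expression table, and 8.51% of them had a match. The members were chosen by name as p53 pathway genes, so their share is a description and not a test. The stretches with a match are shown because they place the decamer within these promoters, with the decamers in capitals and the bases in the direction of transcription.
Cdkn1a: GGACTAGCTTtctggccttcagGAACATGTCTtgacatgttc
Ccng1: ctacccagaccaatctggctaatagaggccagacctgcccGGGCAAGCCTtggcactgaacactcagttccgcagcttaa
Mdm2: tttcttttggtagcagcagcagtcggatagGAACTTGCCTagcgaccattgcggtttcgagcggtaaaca
Bax: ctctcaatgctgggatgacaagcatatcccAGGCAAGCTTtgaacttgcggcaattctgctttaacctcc
Trp53: GGACTTGCCC

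The *Cdkn1a* stretch is chr17:29090906-29090947 on the plus strand, upstream of the first of its 2 annotated starts, and the *Ccng1* stretch is chr11:40755432-40755511 on the minus strand. The *Mdm2* stretch is chr10:117710905-117710974 and the *Bax* stretch is chr7:45467060-45467129, both on the minus strand. The *Trp53* decamer is chr11:69580284-69580293 on the plus strand, outside annotated exons. A full element with at most 1 mismatch to 2 adjoining decamers was found in 2 windows of the members, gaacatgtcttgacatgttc in *Cdkn1a*, starting 51 bases before the start, and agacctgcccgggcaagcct in *Ccng1*, 195 bases before it. Such an element was found in 29 of all windows (0.0883%). No decamer was found in the windows of *Phlda3*, *Bbc3*, *Sesn2*, *Cdkn2a* and *Cdkn2b*, which says only that these letters are not within those windows. A match of letters is a description, and binding of p53 was not measured in these data.

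**Figure D1:**
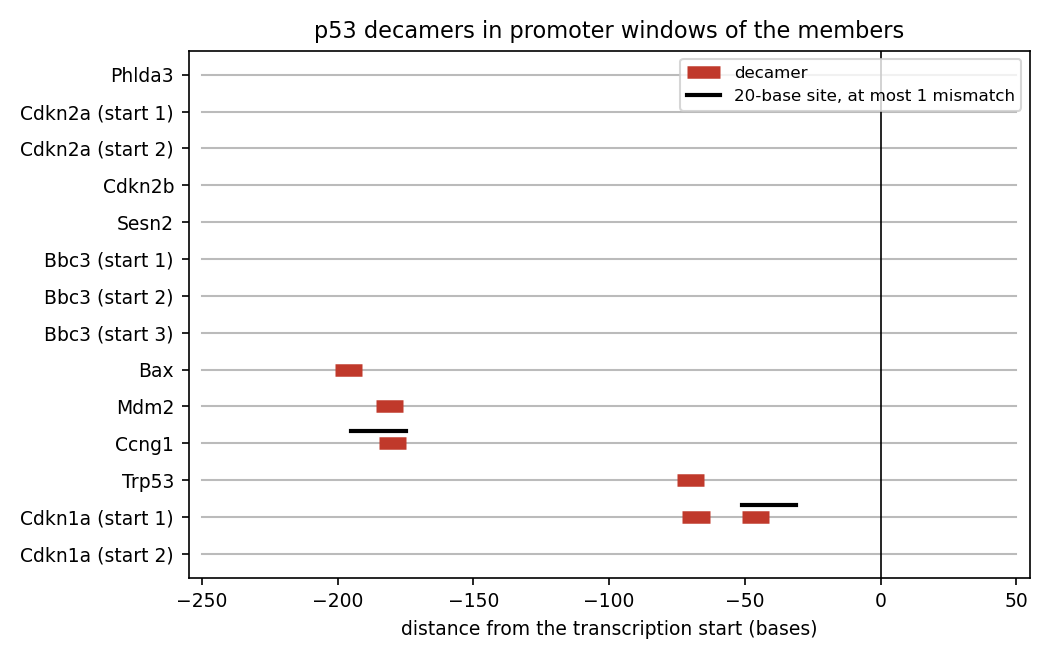
Promoter windows of the 10 members (gray lines, 1 per annotated start), drawn as distance from the transcription start in bases, with p53 decamers in red and 20-base elements with at most 1 mismatch as black bars. Matches lie in *Bax*, *Mdm2*, *Ccng1*, *Trp53* and the first window of *Cdkn1a*, and black bars only over *Ccng1* and *Cdkn1a*.

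For each gene, the deposited table gives a normalized mean of the 3 control libraries and of the 3 mutant libraries. These means carry no SD here, since single libraries were not analysed by gene, so no difference below was tested against the spread between mice. Differences are log2 of the mutant mean over the control mean. The intervals in brackets are 95% exact intervals of the fold difference from estimated reads, and they cover counting error only. In bulk tissue, fewer cells of a type and less RNA per cell cannot be told apart.

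The targeted gene *Arid1b* had a mean of 38.0 in mutant and 97.6 in control samples, a ratio of 0.390. The libraries held an estimated 37123643 to 49594469 reads on the listed genes. Of 10 transcripts of dental mesenchyme, 6 were lower in the mutants, with a median log2 difference of -0.13 and summed levels of 23192 in mutant and 28650 in control samples. Among them, *Gli1*, which drives the CreER, was at 46.1 in mutant and 106.4 in control samples. Whether the *Gli1-CreER* allele itself changes this level was not tested. Of 11 markers of dental epithelium, 10 were past a fold of 1.5, all higher in the mutants, with *Klk4* the exception, and their summed level was 10457 in mutant and 1689 in control samples. Most of this level was that of the enamel matrix genes *Amelx*, *Enam* and *Ambn*, and the other 8 markers summed to 1167 and 573.5. All 4 erythroid transcripts were lower in the mutants, with summed levels of 14.6 and 43.3. The 7 macrophage and leukocyte markers with a value were all higher, with a median log2 difference of 0.21. Of 5 perivascular markers, 4 were lower, with a median of -0.22. The Y-linked *Ddx3y* was at 65.3 in the mutants and at the lowest value of the table in the controls, and *Xist* was at 813.8 and 3368, so the groups also differ in sex-linked transcripts. No marker of these lists was at the lowest value in both groups. The part of tissue composition and of sex in the values below was not tested.

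All 10 members had a higher mean in the mutants, where 50.5% of all genes were higher. Their median log2 difference was 0.18, and that of all genes was 0.0022. The differences ran from 0.05 for *Bax* to 0.76 for *Cdkn2b*. *Cdkn2a* and *Cdkn2b* were the 2 members over a fold of 1.5 (20%, against 7.37% of all genes), and both are expressed at low levels. Of the 7 members with a mean of at least 10 over both groups, none was over a fold of 1.5, against 2.15% of the 10311 genes at that level. *Ccng1* and *Phlda3* were more than 25% higher among these 7, against 5.11% of the genes at that level.

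**Figure D2:**
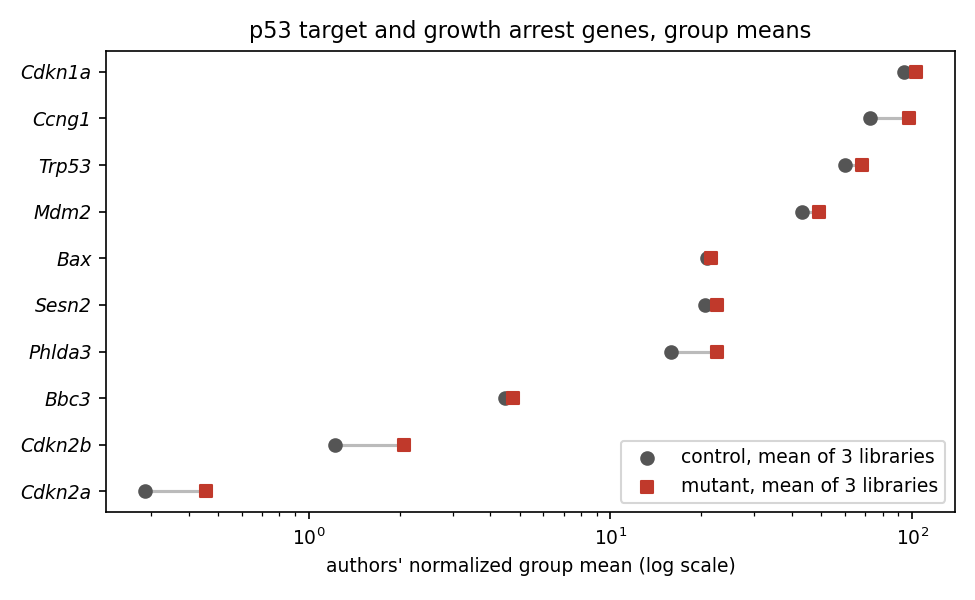
Authors' normalized group means of the 10 members on a log scale, controls as gray circles and mutants as red squares, each the mean of 3 libraries with no error shown because single libraries were not analysed by gene. The mutant mean lies to the right of the control mean for each gene, by the smallest ratio for *Bax* and the largest for *Cdkn2b*.

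At the head of the pathway, *Trp53* (chromosome 11, 69580359 to 69591873) had a mean of 68.0 in mutant and 59.9 in control samples. This was a log2 difference of 0.18, or 13.6% higher (fold interval 1.10 to 1.17). *Mdm2* (chromosome 10, 117688875 to 117710758), the ubiquitin ligase that is both a target and the main inhibitor of p53, had means of 49.2 and 43.3. The log2 difference was also 0.18, or 13.5% higher (fold interval 1.09 to 1.18). The regulator and its inhibitor thus differed between the groups by nearly the same ratio.

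Among the p53 targets that act on the cell cycle, *Cdkn1a* (chromosome 17, 29090976 to 29100727), which encodes the kinase inhibitor p21, had a mean of 103.2 in mutant and 93.8 in control samples. Its log2 difference was 0.14 (fold interval 1.07 to 1.13), below the median of the members. *Ccng1* (chromosome 11, 40748552 to 40755311), which encodes cyclin G1, a partner of the phosphatase that acts on MDM2, had means of 97.7 and 72.3. *Ccng1* was thus 0.43 higher on the log2 scale, a ratio of 1.35 (fold interval 1.31 to 1.39). The 2 targets with a full p53 element in the printed stretches had counting intervals that did not overlap. Whether the sizes of their differences are apart beyond the spread between mice could not be tested.

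*Phlda3* (chromosome 1, 135766119 to 135769136), whose protein restrains AKT signaling at the membrane, had a mean of 22.5 in mutant and 15.8 in control samples. Its log2 difference of 0.51, a ratio of 1.42 (fold interval 1.34 to 1.51), was the largest among the 7 members with a mean of at least 10. It ranked 1680 among all 19270 genes by difference, and *Ccng1* ranked 1999.

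The 2 members that act directly in cell death had the smallest differences. *Bax* (chromosome 7, 45461697 to 45466898), whose protein opens pores in the mitochondrial outer membrane, had means of 21.6 in mutant and 20.8 in control samples. The log2 difference of *Bax* was 0.05 (fold interval 0.981 to 1.10), which includes equal levels. *Bbc3* (chromosome 7, 16308393 to 16318205), which encodes the BH3-only protein PUMA, had means of 4.76 and 4.47. Its log2 difference was 0.09 (fold interval 0.946 to 1.20), so a difference was not detectable beyond counting error for either gene. The annotation also places the exons of *Gm45808* over 192 bases of *Bax* exons on the same strand, so reads may have been shared, and *Gm45808* was at 0.237 in mutant and 0.216 in control samples.

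*Sesn2* (chromosome 4, 132492032 to 132510501), a leucine sensor that restrains mTORC1 and is a target of both p53 and the stress factor ATF4, had means of 22.6 in mutant and 20.6 in control samples. Its log2 difference was 0.13 (fold interval 1.04 to 1.16). This is close to the log2 difference of 0.14 of *Cdkn1a*.

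Among the 10 members, the INK4 inhibitor genes *Cdkn2a* and *Cdkn2b* had the largest ratios and the lowest levels. *Cdkn2b* (chromosome 4, 89306299 to 89311039), which encodes p15INK4B, had a mean of 2.07 in mutant and 1.22 in control samples, from an estimated 89 and 46 reads per library. *Cdkn2b* was thus 0.76 higher on the log2 scale, a ratio of 1.69 (fold interval 1.39 to 2.11), and 0.47 higher with a pseudocount of 1. *Cdkn2a* (chromosome 4, 89274471 to 89294653) encodes p16INK4A and, from another first exon, p19ARF, which blocks MDM2, and values per gene cannot separate these products. Its means were 0.457 and 0.286, from an estimated 19 and 10 reads per library. The log2 difference of *Cdkn2a* was 0.67, a ratio of 1.60 (fold interval 1.05 to 2.69), and with a pseudocount of 1 it was 0.18. At such levels large ratios were common: 17.9% of genes with a mean under 1 were higher in the mutants by over a fold of 1.5, and 8.75% of those with a mean from 1 to under 10.

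**Figure D3:**
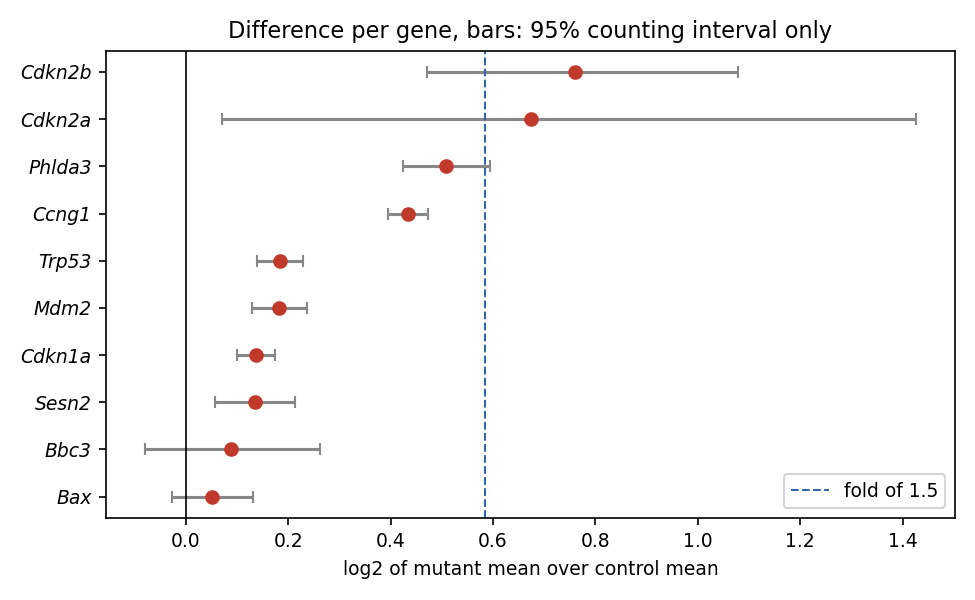
Log2 of the mutant mean over the control mean for each member (points), with 95% counting intervals as bars that leave out the spread between mice, and a dashed line at a fold of 1.5. *Cdkn2b* (0.76) and *Cdkn2a* (0.67) lie beyond the line, and the bars of *Bax* and *Bbc3* cross 0.

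Per kilobase of annotated exon, which allows genes to be compared, the levels in the controls were highest for *Cdkn1a* (26.4 per kb), followed by *Ccng1* (20.6), *Trp53* (14.8), *Bax* (13.2) and *Phlda3* (10.2). *Mdm2* (8.52), *Sesn2* (5.93) and *Bbc3* (2.11) followed, and *Cdkn2b* (0.880) and *Cdkn2a* (0.244) were lowest. In the mutants the order was the same except that *Phlda3* (14.5 per kb) stood above *Bax* (13.7). *Ccng1* was at 27.8 per kb in the mutants, beside 29.0 for *Cdkn1a*. Whether neighbors in this order differ beyond the spread between mice could not be tested. Of the kinase inhibitor genes *Cdkn1a*, *Cdkn2a* and *Cdkn2b*, *Cdkn1a* had the highest level per kilobase in both groups.

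**Figure D4:**
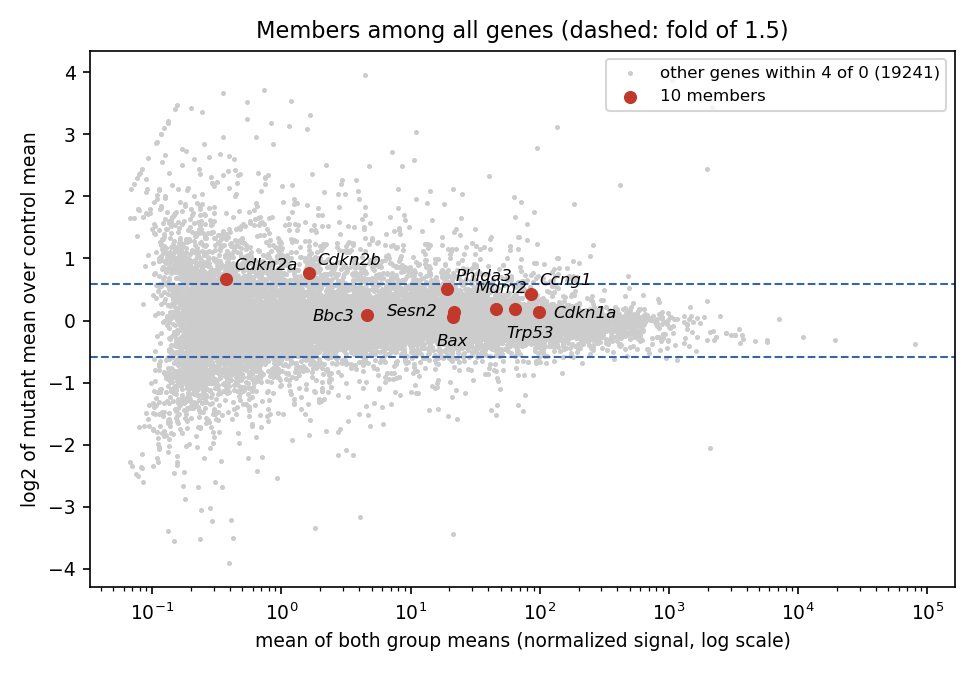
Log2 of the mutant mean over the control mean against the mean of both groups on a log scale, for the 10 members (red) among all other genes (gray), with dashed lines at a fold of 1.5 and 19 genes beyond 4 on the log2 scale left out. The members lie above 0, and the scatter of all genes is widest at low means, where *Cdkn2a* and *Cdkn2b* lie.

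The other p53 targets were higher in the mutants for 22 of 30 genes (73.3%, against 50.5% of all genes), with a median log2 difference of 0.23. In all, 4 genes (13.3%) were higher by over a fold of 1.5, against 7.37% of all genes, and 0 were lower by that fold, against 5.8% of all genes. Among the 19 targets with a mean of at least 10, the median was 0.10, 13 were higher, and only *Psrc1* was over a fold of 1.5 (5.26%, against 2.15% of genes at that level). *Psrc1*, which encodes a spindle protein of dividing cells, had means of 16.7 in mutant and 8.93 in control samples, a log2 difference of 0.91. The remaining 3 were named after their values were seen. *Eda2r*, a receptor of the ectodysplasin family, was at 6.99 and 1.96, *Pmaip1*, which encodes the BH3-only protein NOXA, at 3.13 and 0.960, and the death receptor gene *Fas* at 3.04 and 1.76. The log2 differences of these genes were 1.84, 1.71 and 0.78.

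Other targets spread on both sides of 0 and were also named after their values were seen. *Btg2*, an antiproliferative gene, was 0.57 higher on the log2 scale, *Aen*, a nuclease gene, 0.41 higher, and *Zmat3*, an RNA-binding protein gene, 0.32 higher. *Sesn1*, the closest relative of *Sesn2* in the list, had means of 69.8 in mutant and 85.7 in control samples, a log2 difference of -0.30. *Trp53inp1*, a further stress-response target, was at 211.0 and 231.5, a log2 difference of -0.13.

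Among 16 regulators of p53 and kinases of the damage response, 13 were higher (81.2%, against 50.5% of all genes) and 2 were over a fold of 1.5 (12.5%, against 7.37%), with a median log2 difference of 0.07. These 2 were the p53 relatives *Trp63* and *Trp73*. *Trp63*, a regulator of stratified epithelia, was at 117.6 in mutant and 62.2 in control samples, a log2 difference of 0.92. *Trp73* was at 15.1 and 8.03, a log2 difference of 0.91. These values stand beside a median of 1.15 over the 11 markers of dental epithelium, and whether they share a source was not tested. *Mdm4*, the partner of *Mdm2* in restraining p53, was at 158.8 and 152.5, and *Wrap53*, which starts next to *Trp53* on the opposite strand, at 7.78 and 7.11. Their log2 differences were 0.06 and 0.13.

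Of 15 other inhibitors and arrest genes, 10 were higher (66.7%, against 50.5% of all genes), with a median log2 difference of 0.09. Only *Gas1* was over a fold of 1.5 (6.67%, against 7.37% of all genes higher by that fold). *Gas1*, a membrane protein gene linked to growth arrest and Hedgehog signaling, had means of 90.2 in mutant and 57.7 in control samples, a log2 difference of 0.64. *Cdkn1b*, which encodes p27, was at 128.1 and 126.2, a log2 difference of 0.02. *Cdkn1c*, which encodes p57, was at 184.3 and 237.0, a log2 difference of -0.36. The 3 genes of the CIP/KIP family, *Cdkn1a*, *Cdkn1b* and *Cdkn1c*, therefore did not share a direction.

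Of the 9 cyclins and kinases that these inhibitors bind, 8 were higher (88.9%, against 50.5% of all genes), with a median log2 difference of 0.08. None of them was over a fold of 1.5, against 7.37% of all genes higher by that fold. Of 7 proliferation genes, 5 were higher (71.4%, against 50.5% of all genes), with a median of 0.25. *Ccnb1*, which encodes the mitotic cyclin B1, was the 1 gene over the fold (14.3%, against 7.37% of all genes). Its means were 35.6 in mutant and 22.9 in control samples. *Mki67* was at 209.3 and 176.5. The 2 genes that were not higher were *Mcm2*, at 43.4 in mutant and 46.4 in control samples, and *Pcna*, at 99.90 and 100.15. Of 10 listed senescence genes, 7 were in the table, and 6 of these were higher (85.7%, against 50.5% of all genes), with a median of 0.30. None of these 7 was over a fold of 1.5, against 7.37% of all genes higher by that fold.

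The BCL2 family around *Bax* and *Bbc3* had a median log2 difference of -0.05, with 6 of 14 genes higher (42.9%, against 50.5% of all genes). *Pmaip1*, given above, was the 1 gene over a fold of 1.5 (7.14%, against 7.37% of all genes higher by that fold). *Bcl2*, which blocks BAX, was at 74.6 in mutant and 96.9 in control samples, a log2 difference of -0.38, and was named after its values were seen. The 12 listed genes of ATF4 stress and of mTORC1 regulation had a median of -0.03. Of them, 4 were higher (33.3%, against 50.5% of all genes). In either direction, 16.7% were over a fold of 1.5, against 13.2% of all genes. *Atf3* was 1.11 higher on the log2 scale and *Chac1* had a log2 difference of -1.09, both at means under 10 and named after their values were seen. *Atf4* itself had a log2 difference of -0.03.

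**Figure D5:**
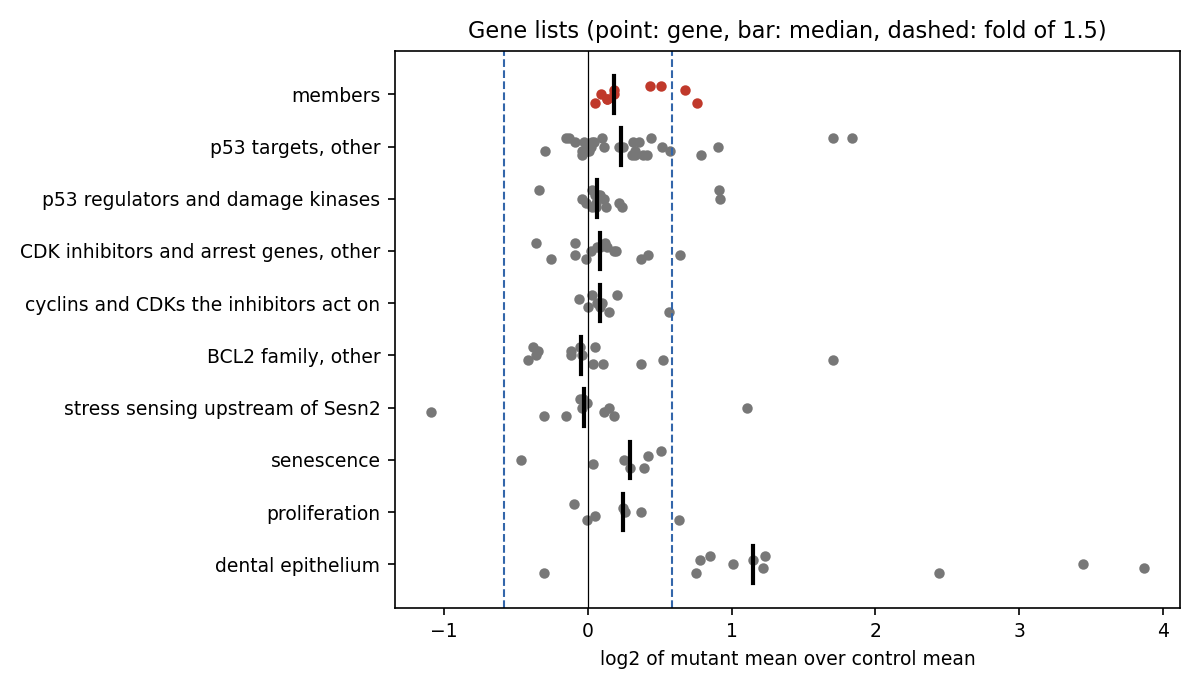
Log2 of the mutant mean over the control mean for each gene (points) of the members (red), of 8 other lists and of dental epithelium markers, with the median of each list as a black bar and dashed lines at a fold of 1.5. The medians of the pathway lists lie between -0.05 and 0.30, and that of dental epithelium at 1.15.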

How the data were processed

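RNA of 3 control and 3 mutant libraries was analysed. Reads were trimmed by the authors, mapped to mm10 and tested for differential expression with Partek Flow, and TopHat2 2.0.8 is named in the submitters' processing notes. The counting, annotation and strand setting are not given in the sources used here. The authors deposited a normalized signal per gene as a mean of each group, and a summary of this signal per library, whose upper quartiles are 44.57 to 44.58. Their table also holds 4 columns of their own comparison (p-value, FDR, ratio and signed fold change), which were not used.

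The signal was read as reads plus 1 times a factor per library, since the lowest group means equal the mean of the library minima. Distances from the lowest mean, up to 5 reads, came out as whole reads within 2% of a read for 25 of 43 control and 16 of 34 mutant values, so reads per gene are estimates. Log2 ratios were computed from the group means without a pseudocount, and intervals are exact Clopper-Pearson intervals on estimated reads. A fold of 1.5 follows the methods. No test was run, since only group means were used. On simulated data the scripts were tested with planted changes. The labels do not say whether libraries came from separate mice beyond their numbering.

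The members and gene lists were chosen with earlier results of these data known. Genes named were all members, *Arid1b*, *Trp63*, *Trp73*, *Mdm4*, *Wrap53*, *Cdkn1b*, *Cdkn1c*, and list genes over a fold of 1.5 with a group mean of at least 10, and others are marked. *Mki67*, *Mcm2*, *Pcna*, *Gli1*, *Col1a1*, *Dspp*, *Igfbp6*, *Klk4*, *Amelx*, *Enam*, *Ambn*, *Atf4* and the sex-linked genes were named as markers. The marker lists of leukocytes, endothelium, perivascular cells and glia had median log2 differences of 0.21, 0.05, -0.22 and -0.10, and those of erythroid cells, dental mesenchyme and sex -1.53, -0.13 and 9.75. Coordinates and exon lengths are from GENCODE vM21 on GRCm38, which is mm10, and 18840 gene names matched 1 gene. Scripts ran under Python 3.11.15 with scipy 1.17.1, matplotlib 3.10.9, pandas 2.3.3 and numpy 2.4.6.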

Additional observations from a re-analysis of the deposited data

How the results depend on the processing

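The direction of all 10 members held when differences were centred on the median of all genes, scaled to equal group totals, computed after subtracting the lowest mean with a pseudocount of 0.1, or with a pseudocount of 1. The number of members over a fold of 1.5, which is 2, was 1 after subtracting the lowest mean, 0 with a pseudocount of 1, 0 among members with a mean of at least 10, 4 at a threshold of 25% and 0 at a fold of 2. The 2 genes counted, *Cdkn2a* and *Cdkn2b*, have low means, where a pseudocount shrinks a ratio most. Of all 19270 genes, 1421 were higher by over a fold of 1.5 without a pseudocount. That number was 1216 after subtracting the lowest mean and 470 with a pseudocount of 1. With means under 10 left out, 2.15% of the genes kept were higher by that fold. For the threshold of 25% and the fold of 2, no share of all genes is given, so those 2 member counts have no background here. Scaling to equal totals raised every difference by 0.06. With a pseudocount of 1, 71.4% of all genes over a fold of 1.5 were higher in the mutants, against 56.0% without it. With the filter on means under 10, the genes over a fold of 1.5 numbered 1 for the other p53 targets, 0 for the BCL2 family and 0 for the ATF4 stress genes, as fewer genes were counted. In either direction, 3.06% of all genes at that level were over the fold. In these 3 lists 13 of 19, 2 of 8 and 2 of 7 genes were then higher in the mutants, against 50.3% of all genes at that level. Scaling to equal totals moved *Trp53*, *Mdm2*, *Cdkn1a* and *Ccng1* beyond their counting intervals, to log2 differences of 0.24, 0.24, 0.20 and 0.49, and a pseudocount of 1 moved *Cdkn2b* from 0.76 to 0.47 and *Cdkn2a* from 0.67 to 0.18. The filter on low means moved the median of the other p53 targets from 0.23 to 0.10 and that of the BCL2 family from -0.05 to -0.09, and the remaining list medians kept their direction and moved by less than 1.5 times. For the lists other than the members, and for *Arid1b*, scaling to equal totals and pseudocounts were not run. No paired analysis was possible because the columns used are group means that carry no replicate number, and leaving out each replicate was not run for the same reason. Precision for *Cdkn2a* is limited by its few reads, and spread between mice is not covered by any interval.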
